A study of Homo sapiens with 15 samples.

Results

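AP-1 is a family of dimeric transcription factors, and 10 genes of this family and of its partners were followed through a comparison of young and senescent MRC-5 cells, a fibroblast line established from the lung of a human fetus. They were taken by name: FOS, FOSB, FOSL1 and FOSL2 of the FOS family, JUN, JUNB and JUND of the JUN family, ATF3, and the small MAF proteins MAFF and MAFK. All 10 were found among the 57227 genes of the count table and all 10 were among the 15799 genes kept after a filter on low counts. RNA was sequenced from 15 libraries in 5 conditions of 3 replicates each. Young cells, harvested at PD 30 (population doubling 30), had been infected with a pWPIR-GFP lentivirus that was empty or carried TRF2, a telomere-binding protein of the shelterin complex, and had received a control siRNA. In a further young group an siRNA against LMNB1, the gene of the nuclear envelope protein Lamin B1, took the place of the control siRNA, and its column names place it on the empty vector. Senescent cells were infected with the empty or the TRF2 virus while they were still pre-senescent and were harvested once they no longer divided. That they received the control siRNA is given by their column names only. By the study's account the senescent cells with TRF2 had gone through more population doublings than those with the empty vector. Comparisons between these groups hold that difference too. The senescent cells with TRF2 had also carried it for many doublings, and the young cells with TRF2 for days. Their comparison, and its difference from the one on the empty vector, hold this as well. Every library thus came from cells that had been infected and, by the methods or the column names, transfected, and no library came from untouched cells.

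Per their labels, the 6 libraries of senescent cells are reanalysed ones that were deposited earlier, which those of young cells are not. Senescence and the deposit can therefore not be told apart. The study calls the replicates biological without naming separate cultures, and the p-values below measure the spread between these libraries. Total counts ranged from 26725885 to 43116046 per library, and the members were covered by 30 counts (the lowest, FOSB) to 8830 counts (the highest, JUN). The labels held: TERF2, which encodes TRF2, was higher with the TRF2 virus by 3.03 ± 0.25 (log2, SE) in young cells and by 3.23 ± 0.25 in senescent cells, and LMNB1 was lower by a log2 fold change of -4.48 ± 0.13 with siLMNB1. LMNB1 also fell with senescence, with log2 fold changes of -3.54 on the empty vector and -4.07 with TRF2. Summed over 9 fibroblast markers, levels lay between 20154 and 33572 CPM (each count as a share of its library, rescaled to the usual fixed total after TMM scaling) in all libraries, against 19.8 to 40.5 CPM for 11 markers of epithelial, endothelial and blood cells, of which 2 were at 0 throughout. The sum of 5 markers of dividing cells was 465 to 495 CPM in young cells with the empty vector and 56.8 to 68.8 CPM in senescent ones, and the growth arrest genes CDKN1A, CDKN2A and CDKN2B were higher in senescent cells with either vector (3 of 3). In such bulk samples, fewer cells of a type and less RNA per cell cannot be told apart.

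AP-1 proteins are basic leucine zipper (bZIP) factors. They bind DNA as pairs, JUN proteins with each other or with a FOS protein, whereas FOS proteins need a JUN partner, and the pairs recognise the TPA response element or the closely related cAMP response element. FOS, FOSB, JUN, JUNB, ATF3 and MAFF are immediate early genes in fibroblasts, switched on within minutes by serum or stress through MAP kinases, while FOSL1, FOSL2 and JUND give a more lasting AP-1 activity. The small MAF proteins lack a transactivation domain and pair mainly with CNC factors such as NFE2L2 and BACH1. AP-1 is known as a regulator of proliferation, of matrix-degrading enzymes and of the cytokines that senescent cells secrete.

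The members were unequally abundant. Levels were taken per kilobase of the union of a gene's annotated exons, which can be longer than the transcripts expressed. The order of the members and the family sums below share this limit. FOSL1 was the most abundant member in young cells with the empty vector, at a level of 116 ± 1.61 CPM per kb (SD, n = 3). JUND (40 ± 2.87 CPM per kb) and JUN (36.7 ± 2.37) followed, with libraries that overlapped, and JUNB stood at 19.9 ± 1.32 CPM per kb. FOS (13.8 ± 3.75 CPM per kb) and FOSL2 (12.9 ± 0.736) did not differ beyond their spread, nor did MAFF (7.92 ± 0.113) and MAFK (7.09 ± 0.874). ATF3, at 3.38 ± 0.26 CPM per kb, and FOSB, at 1.63 ± 0.188, were the least abundant. In senescent cells with the empty vector FOSL1 was again the highest (89.4 ± 15.3 CPM per kb), now within its spread of JUND (77.1 ± 11.5). MAFK stood at 15.3 ± 2.11 CPM per kb there, above FOSL2 (8.22 ± 2.25), MAFF (6.97 ± 1.76), FOS (3.27 ± 1.57) and ATF3 (2.97 ± 0.216), of which FOSL2 and MAFF, and FOS and ATF3, did not differ beyond their spread. FOSB was the lowest, at 0.384 ± 0.165 CPM per kb.

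**Figure D1:**
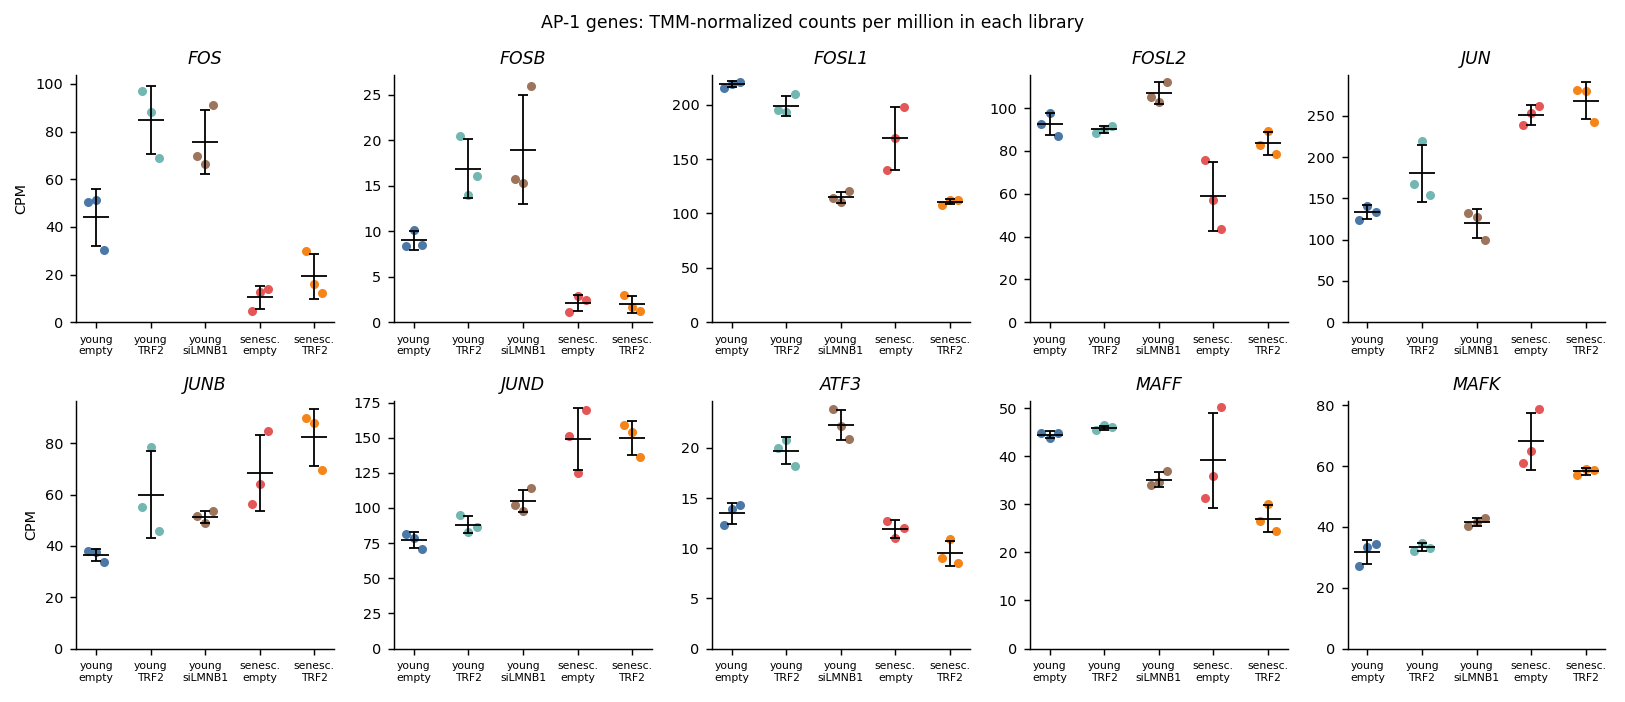
Level of each AP-1 gene in each of the 15 libraries, in TMM-normalized CPM (y axis from 0, a scale of its own for each gene) by condition (x axis). Coloured points are libraries, and the black bar and whiskers are the mean and SD of 3. FOS and FOSB lie low in both senescent conditions (mean FOS 10.4 and 19.3 CPM against 44.1 CPM in young cells with the empty vector), while JUN, JUND and MAFK lie high there.

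The first comparison, on the empty vector, asked how the family stands in replicative senescence. By the quasi-likelihood test of edgeR, with p adjusted by Benjamini-Hochberg over all 15799 genes, all 4 FOS family genes fell (FOS, FOSB, FOSL1 and FOSL2), 4 members rose (the JUN family genes JUN, JUNB and JUND, and MAFK), and ATF3 and MAFF did not pass. These 4 lower and 4 higher members stand against 31.9% and 32.7% of all genes tested that were lower and higher in the same comparison. With the study's additional threshold of 1 on the log2 fold change, FOS and FOSB remained lower (2 members, against 11.8% of all genes) and MAFK remained higher (1 member, against 16.7%). For 8 of the 10 members the 3 senescent libraries did not overlap the 3 young ones, as for 64.7% of all genes. The median log2 fold change of the members was -0.19, against 0.02 over all genes tested.

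FOS, the founding member of its family and a partner of JUN in the classical AP-1 dimer, measured 50.6, 51.4 and 30.3 CPM in the 3 young libraries with the empty vector and 4.69, 12.6 and 13.9 CPM in the senescent ones. Each senescent library lay below each young library. FOS fell by 2.08 on the log2 scale (SE 0.36, adjusted p = 8.8e-05), which is 4.23-fold. FOSB, its closest relative in the family, measured 8.44, 10.2 and 8.45 CPM in young and 1.12, 2.89 and 2.4 CPM in senescent libraries, again without overlap, and fell by 2.08 as well (SE 0.32, adjusted p = 3.4e-05). FOSL1, which encodes the protein FRA-1, measured 215, 219 and 221 CPM in young libraries and 139.9, 169 and 198 CPM in senescent ones. Its senescent libraries were more spread than its young ones but stayed below them, and the fall was small, 0.37 on the log2 scale (SE 0.10, adjusted p = 0.00354). FOSL2, which encodes FRA-2, went from 92.6, 97.7 and 87.1 CPM to 75.7, 57.3 and 43.6 CPM without overlap, and fell by 0.65 (SE 0.14, adjusted p = 6.1e-04).

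JUN, the partner through which FOS proteins bind DNA, moved the other way. It measured 124, 141 and 133 CPM in young and 239, 253 and 262 CPM in senescent libraries, did not overlap, and rose by 0.92 on the log2 scale (SE 0.13, adjusted p = 1.2e-05). JUNB, which can hold JUN activity in check, measured 37.9, 37.6 and 33.6 CPM in young and 56.3, 64 and 84.8 CPM in senescent libraries. Its groups did not overlap either, and the difference was 0.91 (SE 0.18, adjusted p = 2.7e-04). JUND, the JUN family gene that is expressed most steadily and is known to slow fibroblast growth, went from 81.6, 78.9 and 70.9 CPM to 151, 125 and 169.6 CPM, a log2 fold change of 0.95 (SE 0.11, adjusted p = 1.5e-06). The rises of JUNB and JUND, unlike that of JUN, were lost with an adjustment for GC content and length that is described further on.

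ATF3, a stress-induced factor that pairs with JUN proteins and often represses, measured 12.3, 13.9 and 14.3 CPM in young and 12.7, 11 and 12 CPM in senescent libraries with the empty vector, which overlapped (log2 fold change -0.19, SE 0.11, adjusted p = 0.155). MAFF overlapped too, at 44.8, 43.7 and 44.8 CPM in young and 31.2, 35.9 and 50.2 CPM in senescent libraries (log2 fold change -0.18, SE 0.13, adjusted p = 0.23). Only replicate 3 of the senescent libraries was above the young ones, and without it the log2 fold change of MAFF was -0.42 (adjusted p = 3.2e-04). MAFK, the other small MAF protein, measured 27.2, 33.4 and 34.5 CPM in young and 60.9, 64.9 and 78.9 CPM in senescent libraries, which lay clearly apart. Its difference of 1.11 (SE 0.11, adjusted p = 1.6e-07) was the largest rise among the members on this scale, but it too was not kept when GC content and length were accounted for (0.15).

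Promoter sequences are shown for FOS and FOSB, which fell most, and for JUN and JUND, which moved the other way. The 250 bases before the start of FOS, FOSB, JUN and JUND come from RefSeq on GRCh38.p14, 5′ to 3′ on the strand of the gene, in lower case. Capitals mark matches to TGACNTCA, which covers the cAMP response element and its variant in the JUN promoter. Both strands of each region were searched for this motif and for TGANTCA, the TPA response element.
FOS, chr14:75278578-75278827, plus strand: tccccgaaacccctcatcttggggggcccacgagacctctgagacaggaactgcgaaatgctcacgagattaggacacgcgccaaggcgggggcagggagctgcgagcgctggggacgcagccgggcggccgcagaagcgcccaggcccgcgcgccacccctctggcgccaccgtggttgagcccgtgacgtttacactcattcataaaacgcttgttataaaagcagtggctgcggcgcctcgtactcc
FOSB, chr19:45467746-45467995, plus strand: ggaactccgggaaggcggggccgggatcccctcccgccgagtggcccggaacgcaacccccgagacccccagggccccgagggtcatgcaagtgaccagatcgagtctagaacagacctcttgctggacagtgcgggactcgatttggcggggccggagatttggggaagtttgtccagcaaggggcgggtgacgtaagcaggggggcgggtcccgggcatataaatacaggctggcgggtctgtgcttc
JUN, chr1:58784048-58784297, minus strand: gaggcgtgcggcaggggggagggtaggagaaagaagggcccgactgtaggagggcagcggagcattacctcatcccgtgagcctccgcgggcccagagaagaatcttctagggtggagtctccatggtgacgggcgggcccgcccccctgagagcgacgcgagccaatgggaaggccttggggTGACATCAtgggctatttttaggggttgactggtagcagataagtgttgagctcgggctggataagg
JUND, chr19:18281623-18281872, minus strand: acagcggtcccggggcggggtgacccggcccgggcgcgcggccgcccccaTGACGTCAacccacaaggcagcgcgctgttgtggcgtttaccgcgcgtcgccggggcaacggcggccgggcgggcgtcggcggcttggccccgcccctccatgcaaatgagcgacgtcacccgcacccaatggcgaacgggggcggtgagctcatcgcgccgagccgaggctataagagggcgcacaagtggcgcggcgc

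JUN holds TGACATCA with its first base at position -67 from the start and JUND holds TGACGTCA at -200, whereas the FOS and FOSB regions hold no match to either motif in these letters. Of the 8 members with an entry, 4 hold TGACNTCA, since ATF3 has TGACATCA at -123 and MAFF has TGACGTCA at -54, each in 1 of 2 entries. None of the 8 holds TGANTCA. Among all 35116 promoters of the same length, 6.87% hold TGACNTCA and 6.57% hold TGANTCA. Such a match describes the sequence and is not evidence of binding. FOSL1 and MAFK have no entry.

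The pair of families can be read together from the levels per kilobase, as a description without a test. The 4 FOS family genes summed to 144 ± 3.7 CPM per kb in young cells with the empty vector and to 101 ± 14.6 CPM per kb in senescent ones, whereas the 3 JUN family genes summed to 96.5 ± 4.27 and 184 ± 20 CPM per kb. The ratio of the FOS sum to the JUN sum was 1.48, 1.47 and 1.53 in the 3 young libraries and 0.493, 0.6 and 0.56 in the 3 senescent ones. On the empty vector the FOS family was thus the more abundant in each young library and the JUN family in each senescent library. In the other young libraries the ratio was 1.2, 0.992 and 1.32 with TRF2 and 0.849, 0.855 and 0.976 with siLMNB1. Within the FOS family, FOSL1 made up 80.4 ± 2.71% in young and 88.1 ± 2.39% in senescent cells, and FOS 9.56 ± 2.42% and 3.12 ± 1.23%. The makeup of the JUN family hardly moved on this scale, JUN being 38 ± 2.52% and 37.9 ± 3.04%, JUNB 20.6 ± 0.689% and 20.2 ± 2.44%, and JUND 41.4 ± 1.84% and 41.9 ± 3.3% of its sum.

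**Figure D2:**
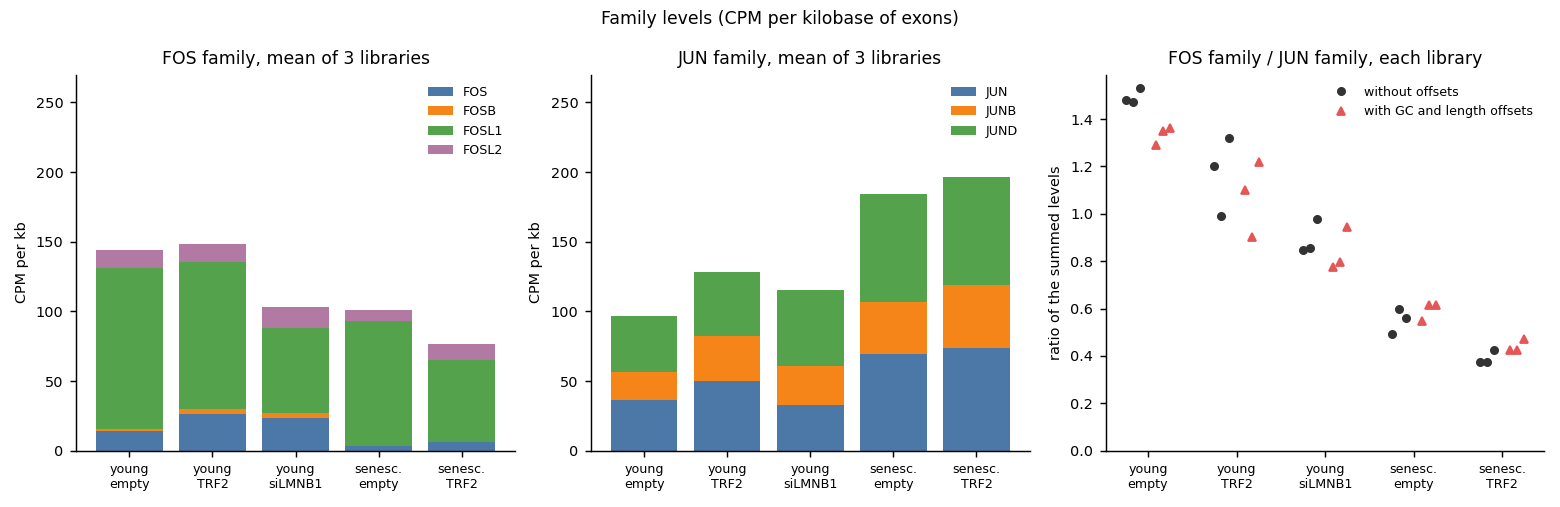
Summed levels of the FOS family (left) and the JUN family (middle) by condition, in CPM per kilobase of exons, stacked by gene from the means of 3 libraries, and the ratio of the 2 sums in each library (right), without (black circles) and with (red triangles) offsets for GC content and length. The ratio is 1.49 on average in young cells with the empty vector and 0.551 in senescent ones, and with the offsets it is 1.34 and 0.594.

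The libraries differed in how counts depended on base composition, and this moved with the groups. Taking the mean of the 3 young_empty libraries (young cells, empty vector) as the reference, log2 counts rose by 0.447 to 0.802 per 10 points of GC content in the 6 senescent libraries, steepest in replicate 3 with the empty vector, and by -0.00617 to 0.13 in the 9 young libraries. All 10 members lie above the median GC content of the exons of the genes kept (47.6%), from ATF3 (50.2%) and FOSL2 (53.4%) to MAFK (64.4%), JUNB (64.9%) and JUND (69.9%). The comparisons were therefore repeated with offsets that take out, in each library, the trend of the log2 ratio to that reference with GC content and then with gene length. If real changes depend on GC content, such offsets remove them as well.

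With the offsets 6 members were lower and 1 was higher in senescent cells with the empty vector, against 29.2% and 28.3% of all genes on that scale. The 4 FOS family genes fell further, FOS by 2.33 on the log2 scale, FOSB by 2.58, FOSL1 by 1.05 and FOSL2 by 0.95, and JUN was the member that still rose, by 0.57 (adjusted p in all 5 below the threshold of 0.05). For the other JUN family genes the sign turned: JUNB had a log2 fold change of -0.09 (adjusted p = 0.655), and JUND one of -0.38, which passed the test as a fall (adjusted p = 0.00909). MAFK was left at 0.15 (adjusted p = 0.141), and MAFF passed the test as a fall at -0.97 (adjusted p = 2.1e-08). The summed level of the FOS family then went from 169.7 ± 2.92 to 77.6 ± 8.68 CPM per kb, and that of the JUN family from 127 ± 4.91 to 131 ± 17.7 CPM per kb. The ratio of the sums, 1.34 ± 0.037 in young and 0.594 ± 0.0397 in senescent cells, was thus lower in each senescent library on either scale, but the rise of the JUN sum was not seen with the offsets. Within the JUN sum, JUN then went from 31.9 ± 2.48% to 46 ± 2.08% and JUND from 47.5 ± 2.11% to 35 ± 3.33%. Which scale is the closer to the RNA content of the cells was not tested. Some reads of JUNB, MAFK and MAFF may also be shared with neighbours, since 14.2%, 18.1% and 5.81% of their exonic bases overlap exons of HOOK2, TMEM184A and PLA2G6 on the opposite strand, and the strand setting of the counting is not given in the sources used here.

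**Figure D3:**
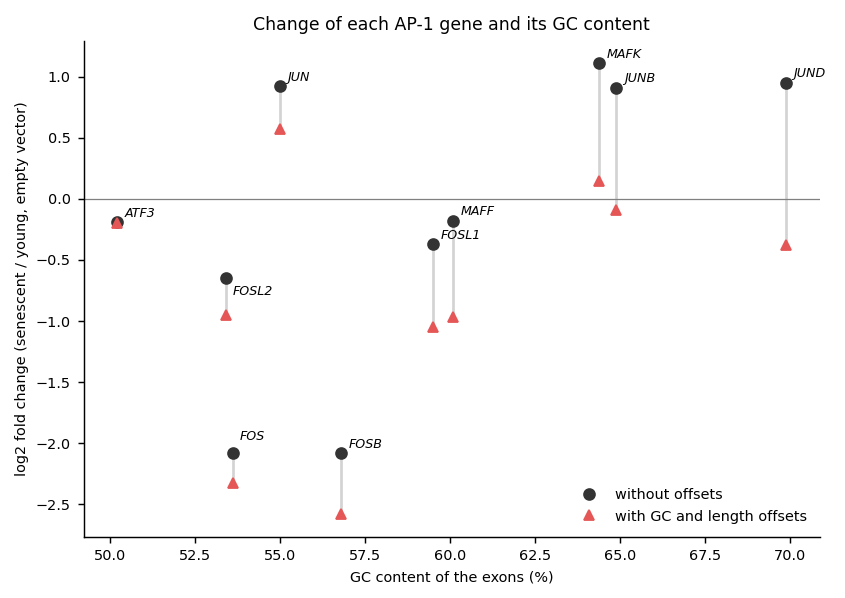
Log2 fold change of each member with senescence on the empty vector (y axis) against the GC content of its exons in percent (x axis), without (black circles) and with (red triangles) offsets for GC content and length, joined by a grey line for each gene. The shift is small for ATF3 at 50.2% GC and large for MAFK, JUNB and JUND at 64.4% GC or more, while FOS and FOSB stay at or below -2.08.

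Senescent and young cells that expressed TRF2 were compared in the same way. This comparison shares no library with the one on the empty vector, and it also holds the longer time under TRF2 of the senescent cells. Of the members 4 rose (JUN, JUNB, JUND and MAFK, against 28.2% of all genes) and 5 fell (FOS, FOSB, FOSL1, ATF3 and MAFF, against 30.1%). The 4 that rose are the 4 that rose with the empty vector, 3 of the 5 that fell had also fallen there, and no member passed in opposite directions. At the study's fold threshold FOSB, FOS and ATF3 were lower (3 members, against 12.1% of all genes) and no member was higher (11.9% of all genes were), as the largest rise, that of MAFK, was 0.81. The libraries of 8 members did not overlap, as those of 71.4% of all genes. The median over the members was -0.44, against -0.02 over all genes.

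FOS measured 97.1, 88.3 and 69 CPM in young and 30, 15.9 and 12.1 CPM in senescent cells with TRF2, without overlap, and fell by 2.14 on the log2 scale (SE 0.35, adjusted p = 5.8e-05). FOSB went from 20.5, 14 and 16.1 CPM to 3, 1.66 and 1.23 CPM and showed the largest fall of the family, 3.12 (SE 0.32, adjusted p = 4.0e-07) or 8.66-fold. FOSL1 fell by 0.85 (SE 0.10, adjusted p = 2.0e-06), from 195, 193 and 209.7 CPM to 108, 112 and 112 CPM. FOSL2 was the exception in its family, as its senescent libraries at 82.8, 89.3 and 78.6 CPM overlapped the young ones at 88.4, 90.2 and 91.4 CPM (log2 fold change -0.11, SE 0.14, adjusted p = 0.517).

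JUN rose by 0.57 (SE 0.13, adjusted p = 0.00106), from 167, 219 and 154 CPM to 281, 280.4 and 242 CPM. JUND rose by 0.76 (SE 0.11, adjusted p = 1.7e-05), from 95, 82.8 and 86.5 CPM to 159, 154 and 136 CPM. Neither of these genes had overlapping libraries. JUNB did, at 55.1, 78.7 and 45.9 CPM in young and 89.8, 87.8 and 69.4 CPM in senescent cells, and its difference of 0.46 (SE 0.17, adjusted p = 0.0314) was the least firm of the calls: it was lost in 4 of 6 fits that left out 1 library, namely those without replicate 1 or 2 of the senescent or replicate 1 or 3 of the young libraries with TRF2, where the lowest value was 0.30. MAFK rose by 0.81 (SE 0.10, adjusted p = 5.9e-06), with 32.2, 34.7 and 33.2 CPM in young and 57.1, 59.2 and 58.8 CPM in senescent libraries.

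ATF3, which had not passed with the empty vector, measured 20, 20.8 and 18.2 CPM in young and 8.99, 10.9 and 8.55 CPM in senescent cells with TRF2, and fell by 1.05 (SE 0.11, adjusted p = 6.5e-07). MAFF fell as well, from 45.4, 46.4 and 46 CPM to 26.5, 30 and 24.4 CPM, by 0.77 (SE 0.13, adjusted p = 1.1e-04). Both were without overlap. With the offsets 1 member, JUN, was higher in this comparison (0.41) (against 29.9% of all genes) and 5 were lower (against 25.6%): FOS (-2.14), FOSB (-3.45), FOSL1 (-1.16), ATF3 (-0.97) and MAFF (-1.33). JUNB (-0.13) and JUND (-0.18) turned sign and MAFK (0.12) did not pass. The ratio of the FOS to the JUN family was 1.17 ± 0.165 in young and 0.392 ± 0.0284 in senescent cells with TRF2, and 1.07 ± 0.16 and 0.441 ± 0.028 with the offsets.

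**Figure D4:**
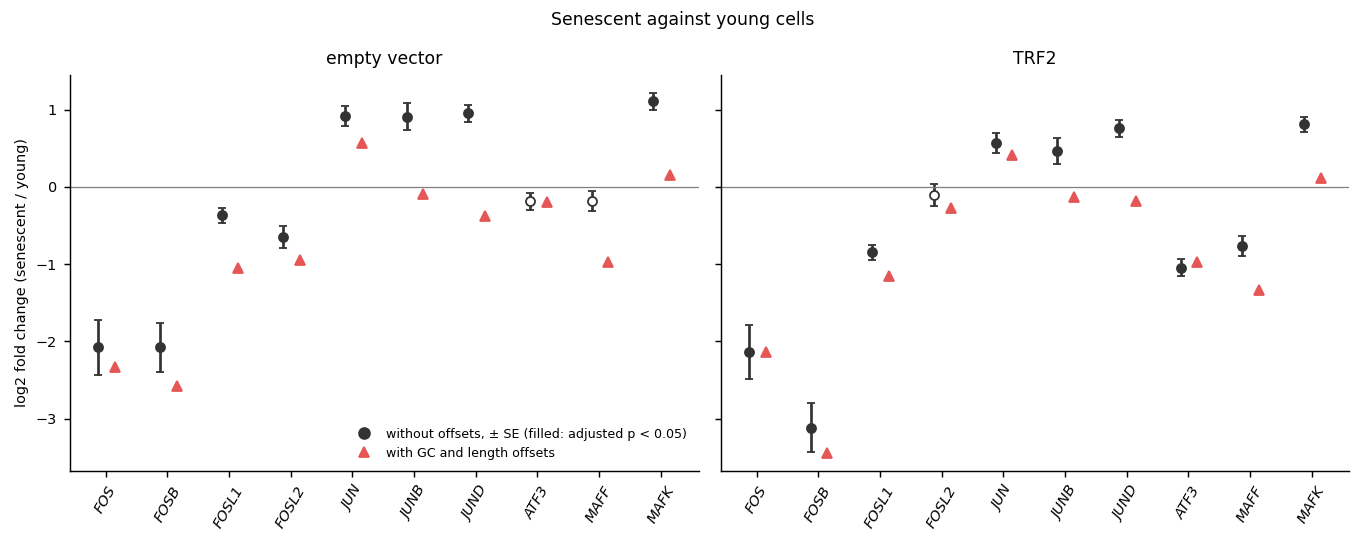
Log2 fold change of each AP-1 gene with senescence, on the empty vector (left) and with TRF2 (right). Black circles with bars are the fitted values ± SE (filled where the adjusted p is below 0.05) and red triangles the values with offsets for GC content and length. FOS and FOSB lie at -2.08 or below in both panels on either scale, JUN stays above 0, and JUNB, JUND and MAFK lie between -0.38 and 0.15 with the offsets.

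Whether the change with senescence itself differed between the vectors was tested by the difference of the 2 comparisons. Young and senescent cells had carried TRF2 for unlike times, and the part of this was not tested. ATF3 was the single member to pass, against 1.13% of all genes: its log2 fold change with senescence was higher with the empty vector than with TRF2 by 0.87 (SE 0.16, adjusted p = 0.0227). With TRF2 against the empty vector, ATF3 had a log2 fold change of 0.54 in young cells and of -0.33 in senescent cells, and neither passed. With the offsets the difference between its senescence changes was 0.77 and passed. This difference did not pass in a fit of only the 12 libraries compared (0.87, adjusted p = 0.0642), and it passed in 6 of 12 fits without 1 library, with adjusted p from 0.00419 to 0.079. The call was lost without replicate 1 or 3 of the senescent libraries with TRF2, replicate 1 or 2 of the young ones with the empty vector, or replicate 1 or 2 of the young ones with TRF2. Without replicate 1 of the senescent libraries with the empty vector 5 members passed, FOSB, FOSL1, FOSL2 and MAFF beside ATF3. The share of all genes that passed in that fit is not reported here, so this count has no background beside it. For FOSB, the larger fall with TRF2 (3.12 against 2.08) did not pass as a difference (1.04, SE 0.45, adjusted p = 0.282), nor did the difference of FOSL2 (-0.54, SE 0.19, adjusted p = 0.188). Mean FOSB was 16.9 CPM with TRF2 and 9.04 CPM with the empty vector in young cells, and 1.96 and 2.13 CPM in senescent cells.

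Knock-down of Lamin B1 in young cells was compared with the control siRNA, to ask whether lowering a gene whose RNA also falls with senescence touches the same genes. Its controls are the same young_empty libraries as above. Of the members 5 rose (FOSB, JUNB, JUND, ATF3 and MAFK, against 16.4% of all genes) and FOSL1 alone fell (1 member, against 16.1%). Without the offsets, FOSL1, JUNB, JUND and MAFK had passed in the same direction with senescence on the empty vector. FOSB had passed there in the opposite direction, and ATF3 had not passed. At the study's fold threshold of 0.58 for this comparison, FOSB and ATF3 were higher (2 members, against 10.3% of all genes) and FOSL1 lower (against 8.06%). Libraries did not overlap for 9 members, as for 57.4% of all genes, and the median over the members was 0.42, against 0.04 over all genes.

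FOSL1 measured 114, 110.5 and 120.2 CPM with siLMNB1 and 215, 219 and 221 CPM in the controls, a fall of 0.93 (SE 0.10, adjusted p = 3.9e-06). It was the fall with the smallest p among the members and its value with the offsets was -1.10. ATF3 rose by 0.72 (SE 0.11, adjusted p = 1.2e-04), to 23.9, 22.2 and 20.9 CPM from 12.3, 13.9 and 14.3 CPM. FOSB rose by 1.08 (SE 0.28, adjusted p = 0.00696), to 15.8, 15.3 and 26 CPM from 8.44, 10.2 and 8.45 CPM. Replicate 3 of the knock-down is the highest for FOSB, and without it the difference was 0.78 and did not pass (adjusted p = 0.0564).

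FOS measured 69.7, 66.4 and 91 CPM with siLMNB1, all above the control libraries, but the difference of 0.78 (SE 0.33) did not pass (adjusted p = 0.0826). It passed without a filter on low counts (adjusted p = 3.4e-09) and in a fit of only the 6 libraries compared (adjusted p = 1.1e-05), where FOSL2 passed as well (0.20, adjusted p = 0.00229) and 7 members in all were higher, against 27.7% of all genes. JUND (0.44, SE 0.11, adjusted p = 0.00575), MAFK (0.39, SE 0.10, adjusted p = 0.00899) and JUNB (0.50, SE 0.17, adjusted p = 0.0392) rose by smaller amounts. JUNB did not pass in any of the 6 fits without 1 library (adjusted p from 0.0603 to 0.122), and MAFK did not pass without replicate 1 of the controls (0.30, adjusted p = 0.0567). With the offsets JUNB (0.27) and JUND (0.05) did not pass, while FOSB (0.97), ATF3 (0.66) and MAFK (0.22) did, so that 3 members were higher and 2 lower against 15.1% and 24.3% of all genes. JUN, at 132, 128 and 99 CPM, overlapped its controls (log2 fold change -0.15, SE 0.13, adjusted p = 0.389). FOSL2 (0.21, SE 0.14, adjusted p = 0.271) and MAFF (-0.34, SE 0.13, adjusted p = 0.0585) did not pass. MAFF passed as a fall with DESeq2 (-0.36, adjusted p = 0.0333) and with the offsets (-0.48, adjusted p = 1.6e-04).

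The FOS family was thus differently made up after Lamin B1 knock-down, again as a description. FOSL1 was 59.2 ± 2.33% of its summed level, against 80.4 ± 2.71% in the controls, and FOS was 23 ± 2.07% against 9.56 ± 2.42%. These shares moved away from those of senescent cells with the empty vector, where FOSL1 was 88.1 ± 2.39% and FOS 3.12 ± 1.23%. The sum fell short of that of the controls (103 ± 8.59 against 144 ± 3.7 CPM per kb). Its ratio to the JUN family was 0.893 ± 0.0718, between those of young and senescent cells with the empty vector. Markers of dividing cells summed to 203 to 208 CPM with siLMNB1 against 465 to 495 CPM in the controls, LMNB1 itself being among them. The part of a change in proliferation in these values was not tested.

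TRF2 expression in young cells gave no call among the members by edgeR's quasi-likelihood test, against 0.152% of all genes that were higher and 0.0253% that were lower. At an unadjusted p below 0.05 there were 5 of 10, against 9.66% of all genes, namely FOS, FOSB, JUN, JUNB and ATF3, all with values above 0. DESeq2 called 2 of them, JUNB (0.70, adjusted p = 0.0167) and ATF3 (0.52, adjusted p = 0.00259), where 0.299% of all genes were higher. Libraries did not overlap for 8 of 10 members, against 23.6% of all genes. With the offsets 0 members were called as well, where 0.178% of all genes were higher and 0.0698% lower. FOS measured 97.1, 88.3 and 69 CPM with TRF2 and 50.6, 51.4 and 30.3 CPM without (log2 fold change 0.94, SE 0.33, adjusted p = 0.343). JUNB measured 55.1, 78.7 and 45.9 CPM with TRF2, all above its controls at 33.6 to 37.9 CPM (0.72, SE 0.17, adjusted p = 0.139). ATF3 came closest to the threshold (0.54, SE 0.11, adjusted p = 0.0716), with FOSB at 0.90 (SE 0.28, adjusted p = 0.274) and JUN at 0.44 (SE 0.13, adjusted p = 0.228). The other 5 members had log2 fold changes between -0.13 (FOSL1) and 0.19 (JUND). FOS, FOSB, JUN, JUNB and ATF3 were all called in a fit of only the 6 libraries compared (2.06% of all genes were called as higher there), and likewise without a filter on low counts (0.708%).

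In senescent cells FOSL2 was higher with TRF2 than with the empty vector (1 member, against 4.87% of all genes), and FOSL1 and MAFF were lower (2 members, against 6.41%). Cell markers moved in this comparison as well: all 5 markers of dividing cells were lower with TRF2 (33.6 to 38.2 CPM summed, against 56.8 to 68.8), and 7 of 9 fibroblast markers were higher. Their part in the members' values was not tested. FOSL1 measured 108, 112 and 112 CPM with TRF2 against 139.9, 169 and 198 CPM, and fell by 0.61 (SE 0.10, adjusted p = 0.00135), a call kept in all 6 fits without 1 library. With the offsets the fall of FOSL1 was 0.32 and that of MAFF 0.38, and both passed. FOSL2 measured 82.8, 89.3 and 78.6 CPM against 75.7, 57.3 and 43.6 CPM, a difference of 0.50 (SE 0.14, adjusted p = 0.0275). MAFF measured 26.5, 30 and 24.4 CPM against 31.2, 35.9 and 50.2 CPM, a fall of 0.54 (SE 0.13, adjusted p = 0.0172). None of these 3 genes had overlapping libraries. FOSL2 lost its call in 4 of 6 fits without 1 library (without replicate 2 with the empty vector or any of the 3 with TRF2), and without replicate 3 with the empty vector it was 0.33. MAFF lost its call without replicate 1 or 3 with TRF2, and without replicate 3 with the empty vector it was -0.31. MAFK was called as lower, at -0.30, without replicate 1 with the empty vector. In a fit of only the 6 libraries compared, in which 2 of 14600 genes passed, none of the 3 did (adjusted p of 0.0968 for FOSL1, 0.263 for FOSL2 and 0.215 for MAFF).

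FOS measured 30, 15.9 and 12.1 CPM in senescent cells with TRF2 against 4.69, 12.6 and 13.9 CPM with the empty vector, which overlapped (0.88, SE 0.35, adjusted p = 0.115). With the offsets FOS (1.07, adjusted p = 0.0308) and JUNB (0.57, adjusted p = 0.0165) passed as higher beside FOSL2 (0.56), 3 members against 9.01% of all genes, and the 2 lower ones stood against 7.06%. The remaining members had log2 fold changes between -0.33 (ATF3) and 0.27 (JUNB). ATF3 and MAFK did not overlap between the groups, so that 5 members in all did not, against 26.8% of all genes.

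**Figure D5:**
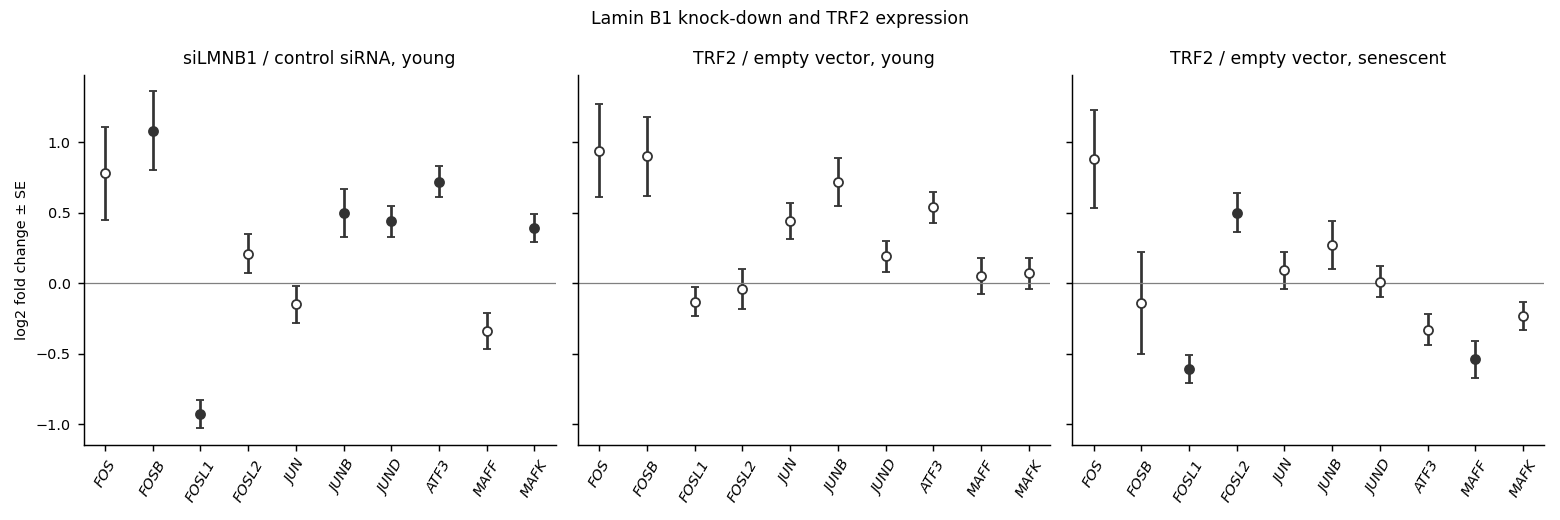
Log2 fold change ± SE of each AP-1 gene (x axis) with siLMNB1 against the control siRNA in young cells (left), and with TRF2 against the empty vector in young (middle) and in senescent cells (right), filled where the adjusted p is below 0.05. FOSL1 is at -0.93 with siLMNB1 and -0.61 with TRF2 in senescent cells, and in the middle panel no circle is filled although FOS and FOSB lie at 0.94 and 0.90. The first 2 panels share their control libraries.

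Other genes of the pathway were followed as lists. Among 19 kinases and factors upstream of AP-1, 5 rose and 8 fell in senescent cells with the empty vector, with a median of 0.03. For this and the following lists, the shares of all genes with senescence were 32.7% higher and 31.9% lower with the empty vector, and 28.2% and 30.1% with TRF2. They were 16.4% and 16.1% with siLMNB1, 0.152% and 0.0253% with TRF2 in young cells, and 4.87% and 6.41% with TRF2 in senescent cells. None of the list calls for TRF2 in senescent cells was kept in a fit of only the 6 libraries compared, in which 2 of 14600 genes passed. Such a fit moved some other counts down, left some as they were and moved others up. With senescence on the empty vector 6 kinases and factors (8 in the main fit) and 9 immediate early genes (11) were lower. There 7 targets were higher (8) and 5 lower (6), against 28.6% and 27.4% of all genes. With TRF2 in young cells 6 immediate early genes, 3 bZIP genes and 5 targets were then higher, against 2.06% of all genes. Lower were 2 targets, against 1.24%. With siLMNB1 10 immediate early genes were higher and 11 lower, and 2 targets were higher and 15 lower. For bZIP genes these counts were 3 and 5, and for kinases and factors 5 and 6, against 27.7% of all genes in each direction. Of the 19 kinases and factors, the first by p with senescence on the empty vector were MAPK7 (1.12), MAP2K7 (1.01), MAPK3 (1.08) and MAPK8 (-0.81). They encode ERK5, the JNK kinase MKK7, ERK1 and JNK1. With TRF2 6 rose, with MAPK3 at 1.15, and 4 fell, with MAPK8 at -0.63. With the offsets the empty vector gave 3 rises in place of 5, the falls being 8 on both scales. siLMNB1 gave 4 in each direction (3 rises and 7 falls with the offsets), led by falls of MAP2K4 (-0.93) and of the ternary complex factors ELK3 (-0.72) and ELK4 (-0.80). TRF2 expression gave 0 calls in young cells by edgeR and by DESeq2, and 0 genes at an unadjusted p below 0.05. In senescent cells it gave 3 rises and 1 fall (5 and 1 with the offsets), among them SRF (0.48), the serum response factor that acts on the FOS promoter.

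Of the 25 other immediate early genes, 11 fell with senescence on the empty vector and 6 rose, with a median of -0.31. EGR1, a zinc finger factor induced by the same signals as FOS, fell by 2.14 (SE 0.20, adjusted p = 1.1e-07), and CCN2 fell by 1.17 and DUSP5 by 0.73. DUSP4, a phosphatase of MAP kinases, rose by 2.05 (SE 0.17, adjusted p = 2.4e-08). With TRF2 15 fell and 4 rose, with a median of -0.57, led by EGR1 (-2.69) and EGR2 (-3.30), and DUSP4 rose by 1.59. With the offsets the counts were 14 lower and 4 higher with the empty vector and 15 lower and 4 higher with TRF2. siLMNB1 gave 5 rises and 6 falls (4 and 11 with the offsets), among them BTG2 (1.38), DUSP5 (-1.26), DUSP4 (-1.22) and DUSP6 (-0.73). In young cells TRF2 raised 2 genes of this list, ZFP36 (0.94, SE 0.14, adjusted p = 0.0112) and EGR2 (1.57, SE 0.29, adjusted p = 0.0383), and in senescent cells 3 were higher and 4 lower (6 and 3 with the offsets), NR4A2 (-1.11) coming first.

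Of 21 other bZIP genes tested, partners and repressors of the members, 11 fell and 4 rose with senescence on the empty vector, with a median of -0.48. CEBPB (1.01) and NFE2L1 (0.59) were among those that rose, and BACH1, a repressor that pairs with small MAF proteins, fell by 1.02. With the offsets 10 fell and 1 rose. With TRF2 8 fell and 3 rose. siLMNB1 gave 2 rises, CEBPD (1.12) and JDP2 (0.62), and 4 falls, BACH1 (-0.82) first. TRF2 in young cells gave 0 calls by edgeR and by DESeq2, with 4 genes at an unadjusted p below 0.05. In senescent cells 4 rose and 1 fell with TRF2 (9 and 1 with the offsets), among them NFE2L2 (0.51), MAF (1.25) and CEBPB (-0.53).

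Of 21 genes known as AP-1 targets, 8 rose and 6 fell in senescent cells with the empty vector, with a median of 0.19. The stromelysin MMP3 (2.70, SE 0.23, adjusted p = 5.2e-08), its inhibitor TIMP1 (1.56) and the cyclin CCND1 (1.01) were among those that were higher. The lower ones, named after their values were seen, were IL1B (-2.91), IL1A (-2.35), CXCL8 (-1.99), EREG (-1.05), MMP1 (-0.99) and HBEGF (-0.36). With TRF2 6 rose and 13 fell, with a median of -0.49. CXCL8, a chemokine of the senescent secretome, had a log2 fold change of -5.87 (SE 0.54, adjusted p = 1.2e-07) and EREG, a growth factor, one of -2.20, while CCND1 (0.93) and TIMP1 (1.13) rose. siLMNB1 gave 10 falls and 2 rises, with IL11 (-1.82), CCND1 (-0.90), HBEGF (-1.09) and EREG (-2.06) first, and a median of -0.40. In senescent cells 9 targets were lower with TRF2, and SPHK1 (-2.25), IL11 (-0.83), PLAU (-1.02) and CXCL8 (-2.99) came first. With TRF2 in young cells edgeR called 0 targets, with 6 at an unadjusted p below 0.05 (5 above 0 and 1 below) and 2 called by DESeq2. The lists of targets, immediate early genes and regulators were drawn up with earlier results of these data known, so that their counts are descriptions.

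Over the 15 libraries, FOS and FOSB varied most alike among pairs within the family, with Pearson's r of 0.95 between their log2 CPM, followed by JUND and MAFK with 0.92. The kept genes whose pattern was most like that of FOS were HES1 (r = 0.958) and NHSL2 (0.954), and the same genes came first for FOSB (0.978 and 0.970). For FOSL1 they were MYEOV (0.979) and ETV4 (0.975), for FOSL2 SKP2 (0.981) and RNF150 (0.979), for JUN NAA40 (0.982) and GOLGA3 (0.967), and for JUNB CROCCP2 (0.940) and LRRC56 (0.922). For ATF3, EGR2 was among the most alike (0.949). JUND was most like IGSF8 (0.980) and CNP (0.978), MAFF like MANF (0.959) and GPR3 (0.953), and MAFK like MAPK7 (0.988) and RNF19B (0.985). These values are descriptions across 15 libraries that fall into 5 conditions and share the GC trend of the senescent libraries.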

How the data were processed

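RNA-seq of 15 libraries of MRC-5 fibroblasts was used. Per the labels and the study's methods, Trimmomatic was used to trim the reads and STAR to align them to GRCh38, and the authors deposited raw counts per gene without normalization. STAR's own gene counting was used, and the annotation release and the strand setting are not given in the sources used here, and all per-sample columns could be assigned to a condition. Genes were named with GENCODE 44, in which 279 genes of the table were absent. Entries for copies on chromosome Y were left out (57227 of 57272 rows stayed).

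Counts were filtered with filterByExpr (15799 genes kept), scaled with TMM and fitted with edgeR 4.0.16 (limma 3.58.1, R 4.3.3), 1 mean per condition over all 15 libraries. A gene passed the quasi-likelihood test at a p below 0.05, adjusted by Benjamini-Hochberg over all genes kept. CPM values are TMM-normalized. Log2 CPM for correlations had a prior count of 2. Offsets for GC content and length of the union of exons came from loess curves (span 0.3, prior count 1). Total counts were 26725885 to 43116046 per library, and 3 replicates limit the precision.

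The members and gene lists were chosen with earlier results of these data known. Named were all members, TERF2 and LMNB1, up to 4 genes of each list with the smallest p in a comparison, the 2 genes most correlated with each member, and single genes where a count was 5 or fewer. Some genes that this rule names are not reported here. Alternatives were RLE size factors, DESeq2 1.42.0, no filter, a replicate block, the offsets with and without that block, only the libraries compared, the study's fold thresholds and each library left out in turn. The main edgeR fit was run on simulated counts with 197 changed genes among 15349. For senescence on the empty vector it recovered 85.3% of them, with 6 false calls. These counts held no GC trend and far fewer changes than the data, so they do not test the offsets or the calls that depend on them. Same-numbered libraries did not deviate together (correlations from -0.105 to 0.0669).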

Additional observations from a re-analysis of the deposited data

Results flagged for a closer look

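The change of ATF3 with senescence differed between the empty vector and TRF2. The difference of its log2 fold changes (empty vector minus TRF2) was 0.87 by the interaction test of edgeR (SE 0.16, adjusted p = 0.0227), where senescent cells stood at -0.19 against young ones with the empty vector and at -1.05 with TRF2. ATF3 was lower in 3 of 3 senescent libraries than in every young library with TRF2, while the libraries with the empty vector overlapped. The adjusted p of the interaction ranged from 0.00419 to 0.079 over 12 fits without 1 library each, and it was 0.0642 with only the 12 libraries compared.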

How the results depend on the processing

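The falls of FOS, FOSB and FOSL1 and the rise of JUN with senescence passed on both vectors under RLE size factors, DESeq2, no filter, the replicate block, the offsets, only the libraries compared and each library left out. FOSL1 on the empty vector was closest to the threshold, with an edgeR adjusted p of 0.0374 in the fit of only the libraries compared. The offsets cannot tell a technical GC trend from changes of genes that follow GC content. Low counts limit FOSB in senescent libraries (30 counts in the lowest).

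Under the offsets the higher members in senescence were 1 of 10 on the empty vector and 1 with TRF2 (main count 4 each), also with the offsets and the replicate block. The changes of JUNB (-0.09 on the empty vector, -0.13 with TRF2) and JUND (-0.38 and -0.18) were reversed, and with the replicate block added they were -0.09 and -0.11 for JUNB and -0.40 and -0.18 for JUND. With siLMNB1 the offsets left 3 higher members (2 with the block) and gave 2 lower ones, and with TRF2 in senescent cells 3 higher ones. In young cells with TRF2, MAFF (-0.02) and MAFK (-0.01) turned sign within their error, with the block too. The difference between the senescence changes turned to -0.19 for FOS (-0.13 with the block) and to -0.20 for JUND (-0.22 with the block), without passing in any of these fits.

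The study's fold threshold left 1 higher and 2 lower members on the empty vector, 0 and 3 with TRF2, and 2 higher ones with siLMNB1. The lower members with siLMNB1 were 2 under RLE size factors, DESeq2, no filter and only the libraries compared. Of all genes 17.1%, 9.09%, 7.74% and 27.7% were lower in these settings. The higher members with TRF2 in young cells were 2 by DESeq2 (against 0.299% of all genes), and 5 without a filter (0.708%) or with only the libraries compared (2.06%). In senescent cells with TRF2 they were 2 without a filter (against 4.12% of all genes), and 0 higher and 0 lower with only the libraries compared (0.0137% and 0%). The difference between the senescence changes was called for 2 members by DESeq2, 4 without a filter and 0 with only the 12 libraries. Of all genes, DESeq2 called 1.15% as higher and 0.459% as lower there. Without a filter these shares were 1.98% and 1.03%, and with only the 12 libraries 0.0452% and 0.00646%. The cause was not tested. With 1 library left out, the higher members with siLMNB1 numbered 3 to 4, those with TRF2 in senescent cells 0 to 1 (lower 1 to 3), and those with a difference between the senescence changes 0 to 5. The shares of all genes in these fits are not reported here, so these ranges have no background beside them. Log2 fold changes that changed sign in such fits ranged from -0.08 to 0.00 (FOSL2) and -0.03 to 0.13 (MAFK) with TRF2 in young cells, from -0.57 to 0.13 (FOSB) and -0.10 to 0.12 (JUND) in senescent cells, and from -0.23 to 0.52 for FOS as a difference between the senescence changes. None of these 5 passed in any such fit. The replicate block by itself changed no call of 60, and same-numbered libraries were not paired.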
